A study of Homo sapiens with 10 samples.

Results

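DHRS3, CNTN1, STK39 and PEG10 are 4 genes whose array signal separated HCT116 lines by the origin recognition complex gene that was mutated in them. They were taken up because of their difference between the ORC1 and ORC2 lines on these same arrays, so that difference describes them and is not tested here. Each was named by 1 probe set, and all 4 probe sets passed the filter on dim signals (at or above the array median on at least 2 arrays). They are 4 of 14884 named genes and of 10797 genes kept by the filter.

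HCT116 is an established human colorectal carcinoma line. ORC1 and ORC2 encode subunits of the origin recognition complex, which marks the sites where DNA replication starts. The mutant groups were the ORC1 lines ORC1B14 and ORC1BP32 and the ORC2 lines ORC2B2 and ORC2BP8, and they were set against 1 wild-type line (WT). All 5 lines were untreated, with 2 arrays each, titled biological replicate 1 and 2. The labels give neither the kind of mutation nor how the lines were derived, so each line is 1 line of its genotype, and a difference between lines cannot be told apart from a difference that arose as a line was grown. They also do not say whether replicates were separate cultures, so the p-values cover the spread among these arrays alone, which may be technical.

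The 4 genes have separate roles. DHRS3 is a short-chain dehydrogenase/reductase that turns all-trans-retinal back into retinol and so lowers the supply of retinoic acid, and its own transcription is raised by retinoic acid. CNTN1 is contactin 1, an immunoglobulin-family adhesion molecule held on the outer membrane by a lipid anchor and best known from neurons. STK39, also called SPAK, is a serine/threonine kinase that WNK kinases switch on and that phosphorylates the SLC12 family of chloride cotransporters. PEG10 is a paternally expressed imprinted gene derived from a retrotransposon, and encodes a gag-like protein.

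Values are log2 signals as the authors deposited them. The log base is read from their range (1.45 to 13.7), since no label states it. Array medians lay between 3.94 and 3.96 for replicate 1 and between 3.87 and 3.89 for replicate 2, and arrays of a line correlated at 0.979 to 0.984. Of 14 epithelial markers, 11 were named on the array, and 8 of them (EPCAM, KRT8, KRT18, KRT19, CLDN3, CLDN4, CLDN7 and VIL1) lay at or above the median on all 10 arrays. CEACAM5, CEACAM6 and TSPAN8 lay below it on all 10. Arrays give no read depth, and their number limits the precision.

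Upstream sequence is shown for DHRS3, CNTN1 and STK39, the 3 genes that were higher in ORC1 than in ORC2 lines. The promoter set used here held no start for PEG10, so its sequence is not shown. Each run holds the 250 bases before a transcription start in RefSeq (GRCh38.p14), 5′ to 3′ on the strand of the gene. Where RefSeq listed several starts (3 for DHRS3, 2 for CNTN1), the first listed was used. The DHRS3 window is chr1:12618211-12618460 on the minus strand, that of STK39 is chr2:168247596-168247845 on the minus strand, and that of CNTN1 is chr12:40827934-40828183 on the plus strand. Capitals mark matches on either strand to a GC box (GGGCGG) or to the half-site of retinoic acid receptors (AGGTCA).
DHRS3: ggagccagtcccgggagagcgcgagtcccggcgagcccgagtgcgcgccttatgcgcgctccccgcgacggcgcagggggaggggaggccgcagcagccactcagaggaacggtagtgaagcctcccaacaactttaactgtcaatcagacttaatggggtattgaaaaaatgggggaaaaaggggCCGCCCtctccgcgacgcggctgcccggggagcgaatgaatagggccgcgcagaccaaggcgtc
STK39: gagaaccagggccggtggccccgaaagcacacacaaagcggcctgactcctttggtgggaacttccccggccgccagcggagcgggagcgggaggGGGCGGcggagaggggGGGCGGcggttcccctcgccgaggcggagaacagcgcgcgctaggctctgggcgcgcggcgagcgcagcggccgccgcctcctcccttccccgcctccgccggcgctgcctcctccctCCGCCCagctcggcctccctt
CNTN1: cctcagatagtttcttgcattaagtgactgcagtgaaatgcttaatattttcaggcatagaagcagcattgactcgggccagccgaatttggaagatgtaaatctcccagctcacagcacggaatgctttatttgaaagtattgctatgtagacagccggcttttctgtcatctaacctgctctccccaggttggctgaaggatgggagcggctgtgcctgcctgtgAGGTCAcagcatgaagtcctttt

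These windows differed in base composition. STK39 held 32 CpG dinucleotides and 3 GC boxes, and DHRS3 held 26 CpG dinucleotides and 1 GC box. CNTN1 held 5 CpG dinucleotides, no GC box and 1 AGGTCA, which neither the DHRS3 nor the STK39 window held. Over all 35116 RefSeq windows of the same length, the median was 11 CpG dinucleotides, 42.6% held a GC box and 12.1% held AGGTCA. The CCAAT box was in none of the 3 windows and in 32.0% of all windows. The TATA box (TATAAA) was in none of the 3 and in 10.7% of all, and the E-box CACGTG in none of the 3 and in 6.3% of all. A match is only a run of letters, and these counts describe the windows.

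DHRS3 (probe set 16681827, chromosome 1) was highest in the ORC1 lines. Its log2 signal was 8.21 and 8.12 in ORC1B14, 7.55 and 7.44 in ORC1BP32, 6.50 and 6.52 in ORC2B2, 6.46 and 6.42 in ORC2BP8, and 7.02 and 6.53 in WT. In bulk RNA, fewer cells with a transcript and less of it per cell cannot be told apart. The 4 ORC1 arrays (7.44 to 8.21) lay above all others, while the 4 ORC2 arrays (6.42 to 6.52) lay together, just below the lower WT array. The WT arrays were 0.48 apart, the widest gap between arrays of a line for this gene. In order of line means, ORC1B14 stood above ORC1BP32 by 0.67 and ORC1BP32 above WT by 0.72, against a fitted spread between arrays of a line of 0.20 (SD). WT stood above ORC2B2 by 0.26, less than the distance between its own arrays, and ORC2B2 above ORC2BP8 by 0.07, less than the fitted spread.

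CNTN1 (probe set 16750154, chromosome 12) was lowest in ORC2BP8. Its log2 signal was 5.43 and 5.23 in ORC1B14, 5.83 and 5.90 in ORC1BP32, 5.22 and 5.14 in ORC2B2, 4.07 and 3.68 in ORC2BP8, and 5.79 and 6.01 in WT. The ORC1 arrays (5.23 to 5.90) and the ORC2 arrays (3.68 to 5.22) did not overlap, although ORC1B14 replicate 2 and ORC2B2 replicate 1 almost met. ORC1BP32 lay within 0.03 of WT in the mean, and ORC1B14 stood 0.15 above ORC2B2, both less than the fitted spread of 0.20. The step from ORC2B2 down to ORC2BP8 was 1.31. In ORC2BP8 the 2 arrays lay near the array median (46.3% and 51.9% of all probe sets were dimmer), so the size of that low value is uncertain.

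STK39 (probe set 16904741, chromosome 2) had a strong signal in every line, with at least 98.0% of all probe sets dimmer on each array. Its log2 signal was 11.01 and 10.999 in ORC1B14, 11.31 and 11.20 in ORC1BP32, 10.54 and 10.25 in ORC2B2, 10.27 and 10.31 in ORC2BP8, and 11.53 and 11.53 in WT. The 3 groups did not overlap: WT was highest, the ORC1 lines lay between, and the ORC2 lines were lowest. WT stood above ORC1BP32 by 0.28, ORC1BP32 above ORC1B14 by 0.25 and ORC1B14 above ORC2B2 by 0.61, against a fitted spread of 0.14. ORC2B2 and ORC2BP8 differed by 0.10 in the mean, and their arrays overlapped.

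PEG10 (probe set 17048563, chromosome 7) ran the other way and was lowest in the ORC1 lines. Its log2 signal was 5.28 and 5.35 in ORC1B14, 5.76 and 5.75 in ORC1BP32, 6.03 and 6.25 in ORC2B2, 7.10 and 6.96 in ORC2BP8, and 6.54 and 6.65 in WT. WT lay between the ORC2 lines, below ORC2BP8 by 0.44 and above ORC2B2 by 0.45. ORC2B2 stood 0.39 above ORC1BP32, which stood 0.44 above ORC1B14. Each of these 4 steps exceeded the fitted spread of 0.18, and no pair of lines overlapped.

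**Figure D1:**
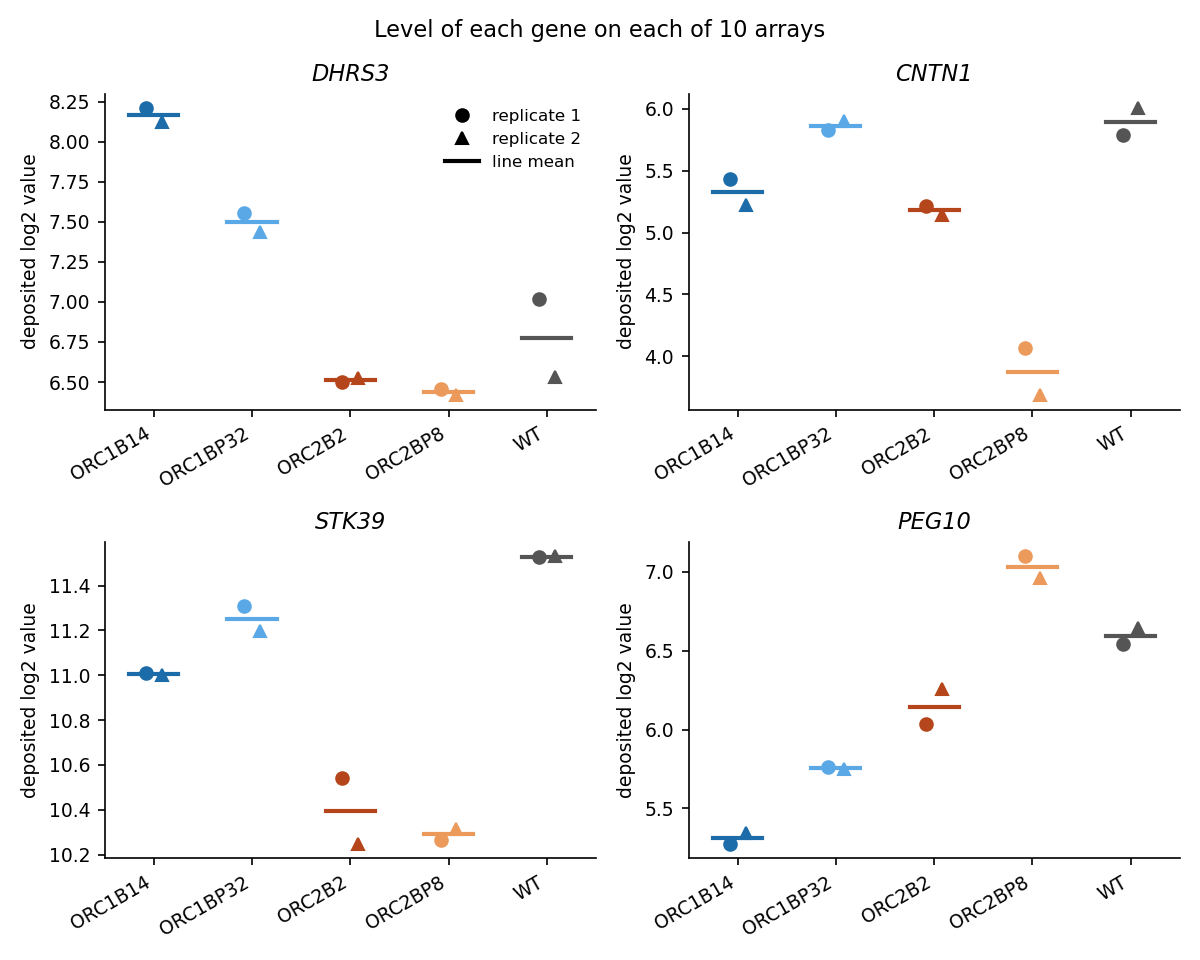
Deposited log2 signal of DHRS3, CNTN1, STK39 and PEG10 (vertical axes, each with its own range) on the 10 arrays, by line (horizontal axes). Circles are replicate 1, triangles replicate 2 and bars the line means (n = 2). The ORC1 arrays lie above the ORC2 arrays for DHRS3, CNTN1 and STK39 and below them for PEG10, and WT lies nearest to the ORC2 lines for DHRS3 and above both mutant groups for STK39.

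The ORC1 lines minus the ORC2 lines, the contrast for which the genes were chosen, gave 1.36 for DHRS3 (SE 0.14), 1.07 for CNTN1 (SE 0.14), 0.79 for STK39 (SE 0.10) and -1.06 for PEG10 (SE 0.13), in log2 units. As ratios these are 2.56-fold, 2.10-fold and 1.72-fold higher, and 2.08-fold lower for PEG10. Within replicate 1 and replicate 2 the differences were 1.41 and 1.31 for DHRS3, 0.99 and 1.15 for CNTN1, 0.75 and 0.82 for STK39, and -1.05 and -1.06 for PEG10. By size the 4 genes ranked 13 (DHRS3), 25 (CNTN1), 27 (PEG10) and 88 (STK39) of 10797. In that contrast limma called 5 genes, or 0.0463% of those tested, and 4 of the 5 are the genes described here because that is how they came to be chosen. The fifth was MIR4527 at -1.60 (SE 0.18). CNTN1 was the last of the 5 by p, and DNER and MON1B stood just outside the threshold of that test at 1.30 (SE 0.19) and 0.93 (SE 0.13). Without either ORC1BP32 array or either ORC2BP8 array the test called 0 genes (485 to 868 at an unadjusted p under 0.05).

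Against WT the 4 genes fell into different arrangements, given here as differences without a test, since these values share arrays with the contrast that chose the genes and share the WT arrays with each other. DHRS3 stood at 1.06 in the mean of the ORC1 lines (SE 0.17) and at -0.30 in that of the ORC2 lines (SE 0.17). PEG10 stood at -1.06 in the ORC1 lines (SE 0.16) and at -0.01 in the ORC2 lines (SE 0.16). For these 2 genes the distance from WT was larger in the ORC1 lines, although the PEG10 mean of the ORC2 lines joins ORC2B2 at -0.45 and ORC2BP8 at 0.44.

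For CNTN1 and STK39 the distance from WT was larger in the ORC2 lines. CNTN1 stood at -0.30 in the ORC1 lines (SE 0.17) and at -1.37 in the ORC2 lines (SE 0.17). STK39 stood at -0.40 in the ORC1 lines (SE 0.12) and at -1.19 in the ORC2 lines (SE 0.12). By line, CNTN1 lay at -0.57 and -0.03 from WT in the lines ORC1B14 and ORC1BP32, and at -0.72 and -2.02 in the lines ORC2B2 and ORC2BP8 (SE 0.20 each). STK39 lay at -0.53, -0.28, -1.135 and -1.24 in the same lines (SE 0.14 each), below WT in 4 of 4 lines. The DHRS3 values against WT depend on which WT array is used. Without WT replicate 1 they were 1.30 for the ORC1 lines and -0.06 for the ORC2 lines, and without WT replicate 2 they were 0.82 and -0.54.

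**Figure D2:**
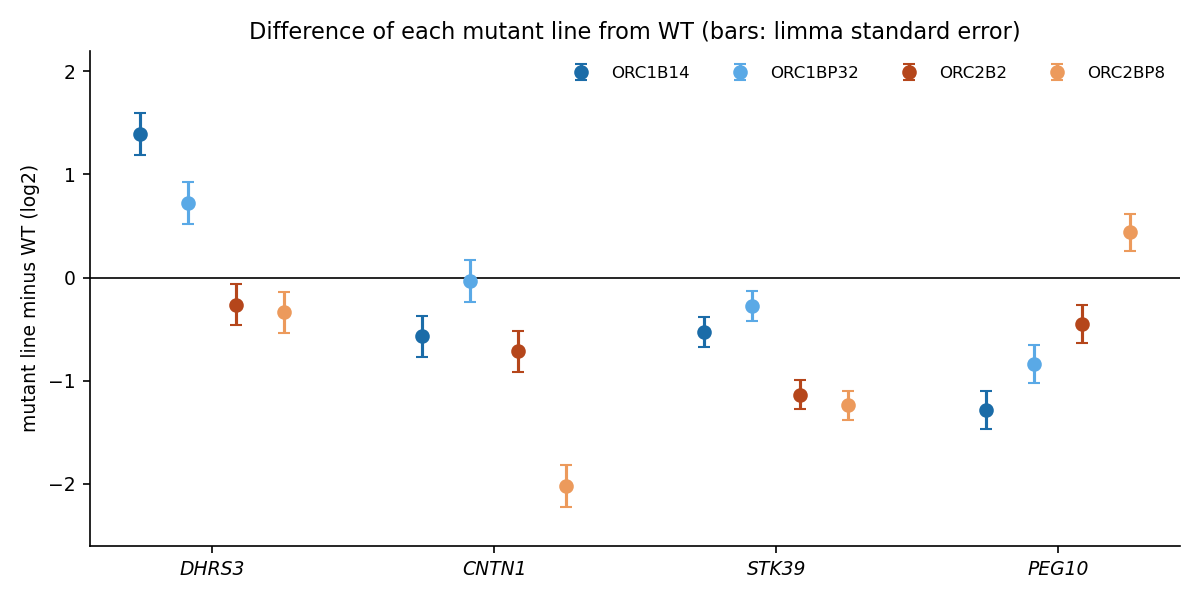
Log2 difference of each mutant line from WT (vertical axis) for the 4 genes (horizontal axis). Points are differences of line means (n = 2 arrays each) and bars are limma standard errors. DHRS3 lies above 0 in the ORC1 lines (1.39 and 0.72), STK39 below 0 in all 4 mutant lines, CNTN1 lowest in ORC2BP8 (-2.02), and PEG10 on either side of 0 in the ORC2 lines (-0.45 and 0.44).

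The mean of all 4 mutant lines against WT does not involve the difference between ORC1 and ORC2 lines and could be tested. STK39 fell by 0.79 (SE 0.11, limma adjusted p = 0.0134), and CNTN1 fell by 0.84 (SE 0.16, limma adjusted p = 0.0391). Both genes were lower in the mean of the mutants within each replicate number, STK39 at -0.75 and -0.84 and CNTN1 at -0.65 and -1.02. The CNTN1 mean joins unlike lines, from -0.03 in ORC1BP32 to -2.02 in ORC2BP8, whose arrays lay near the array median. PEG10 stood at -0.53 (SE 0.14, limma adjusted p = 0.0951), and DHRS3 stood at 0.38 (SE 0.16, limma adjusted p = 0.257). With replicate number as a block in the fit PEG10 also passed (limma adjusted p = 0.0406), where 709 genes were called against 110 without it. Without the block 1.02% of all genes passed in this comparison, against 2 of the 4 genes described here. The spread that limma uses was shared with the contrast that chose the genes, and a small spread favoured their choice, so these p-values may be too small. STK39 lost its call without WT replicate 1 or WT replicate 2 (adjusted p = 0.123 and 0.162, at -0.80 and -0.79), and CNTN1 lost its call without any array except ORC2BP8 replicate 1 (highest adjusted p 0.285, at -0.72, without WT replicate 2). Both calls were also lost when unnamed probe sets were tested with the named genes (adjusted p = 0.0530 and 0.0951), and that of CNTN1 without the filter on dim probe sets (adjusted p = 0.0510).

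The lines of a mutated gene were then compared with each other. CNTN1 was higher in ORC2B2 than in ORC2BP8 by 1.31 (SE 0.20, limma adjusted p = 0.0292), a 2.47-fold difference. Within replicate 1 and replicate 2 it was 1.15 and 1.46. PEG10 stood lower in ORC2B2 than in ORC2BP8 by the same comparison, at -0.89 (SE 0.18, limma adjusted p = 0.109), so it did not pass. With replicate number as a block in the fit PEG10 passed (limma adjusted p = 0.0399), where 94 genes were called against 24 without it. DHRS3 differed by 0.07 (95% interval -0.37 to 0.52) and STK39 by 0.10 (95% interval -0.21 to 0.42). Without the block the comparison called 0.222% of all genes, and 1 of the 4 here. CNTN1 lost this call without either ORC1BP32, either ORC2B2 or either ORC2BP8 array (at 1.12 to 1.497, adjusted p up to 0.243), and when unnamed probe sets were tested too (adjusted p = 0.190).

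Between the ORC1 lines none of the 4 genes passed by limma, where 0.0185% of all genes did, and 3 of the 4 had an unadjusted p under 0.05, as did 5.32% of all genes. DHRS3 stood at 0.67 for ORC1B14 minus ORC1BP32 (SE 0.20, limma adjusted p = 0.620). CNTN1 stood at -0.54 (SE 0.20), PEG10 at -0.44 (SE 0.18) and STK39 at -0.25 (SE 0.14), with adjusted p of 0.867, 0.906 and 0.999. The 95% intervals were 0.23 to 1.12 for DHRS3, -0.98 to -0.10 for CNTN1, -0.85 to -0.04 for PEG10 and -0.56 to 0.07 for STK39.

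Over the 10 arrays, DHRS3 and PEG10 ran opposite to each other (Pearson r = -0.875), and CNTN1 and STK39 ran together (r = 0.833). The other pairs had r between -0.54 and 0.46. These values describe 10 arrays of 5 lines, which are not independent samples, and all 4 genes were chosen on the same contrast.

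The genes most like each of the 4 were taken by r over the same 10 arrays. Closest to DHRS3 were the kinase-like gene ADCK5 (0.930), DLST, a subunit of the alpha-ketoglutarate dehydrogenase complex (0.914), and the zinc-finger gene ZBTB22 (0.905). Closest to CNTN1 were WWTR1, the Hippo pathway coactivator TAZ (0.962), GOLT1A (0.946) and SLIT2, a secreted guidance ligand (0.946). Closest to STK39 were PPP3CA-DT, a divergent transcript of the calcineurin gene PPP3CA (0.944), the ETS transcription factor gene ETV5 (0.937) and the kinase gene RIOK3 (0.935). Closest to PEG10 were XPR1, a phosphate exporter (0.921), DAPK1, a death-associated kinase (0.893), and OSGEPL1 (0.890).

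These 12 genes showed smaller differences between ORC1 and ORC2 lines than the gene they resembled, which the choice of the 4 genes on that contrast favoured. Beside DHRS3 they lay between 0.31 and 0.37, beside CNTN1 at 0.35 (WWTR1), 0.97 (GOLT1A) and 0.76 (SLIT2), beside STK39 between 0.24 and 0.60, and beside PEG10 between -0.75 and -0.41. SLIT2 had means of 5.10 in the ORC1 lines, 4.34 in the ORC2 lines and 5.74 in WT. PPP3CA-DT had means of 8.18, 7.58 and 8.83 in the same order. An r above 0.8 was shared by 51 genes for DHRS3 (0.472% of those tested), 71 for CNTN1 (0.658%), 76 for STK39 (0.704%) and 29 for PEG10 (0.269%). Leaving out 1 array lowered none of the 12 values below 0.852.

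Neighbouring genes on the chromosome were read to see whether the differences extended beyond the gene itself. Next to DHRS3 stood VPS13D at -0.10 (SE 0.16) and AADACL3 at -0.04 (SE 0.15) for ORC1 minus ORC2 lines. Next to CNTN1 stood KIF21A at -0.15 (SE 0.15) and GXYLT1 at -0.21 (SE 0.18). Next to STK39 stood TTC21B, a gene of transport in cilia, at -0.40 (SE 0.19) and the ceramide synthase gene CERS6 at -0.19 (SE 0.12). Next to PEG10 among the tested genes stood CASD1 at -0.38 (SE 0.18) and the paraoxonase gene PON3 at -0.08 (SE 0.16).

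Of the 20 nearest tested genes around each of the 4, 10 on either side, limma called 0 in this contrast in all 4 places, where it called 0.0463% of all genes. The median difference was 0.01 around DHRS3, -0.10 around CNTN1, -0.18 around STK39 and -0.15 around PEG10. The same sign as the gene itself was seen in 10 of 20 neighbours of DHRS3, 7 of CNTN1, 4 of STK39 and 15 of PEG10. Over all tested genes the median difference was 0.002, and the share of each sign was not computed. Only 2 neighbours had a difference as large as the gene beside them, chosen here after their values were seen. They were IFIH1, a sensor of viral RNA near STK39, at 0.80 (SE 0.32, limma adjusted p = 0.633), and SAMD9 near PEG10, at 1.62 and so opposite in sign to PEG10 (SE 0.39, limma adjusted p = 0.228). In the mean of the 4 mutant lines against WT, where 1.02% of all genes were called, limma called 0 neighbours of DHRS3, CNTN1 and STK39 and 1 of PEG10. That was the asparagine synthetase gene ASNS, the eighth tested gene on one side, at -1.39 (limma adjusted p = 0.0207) and -0.01 between ORC1 and ORC2 lines, also named after its values were seen.

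**Figure D3:**
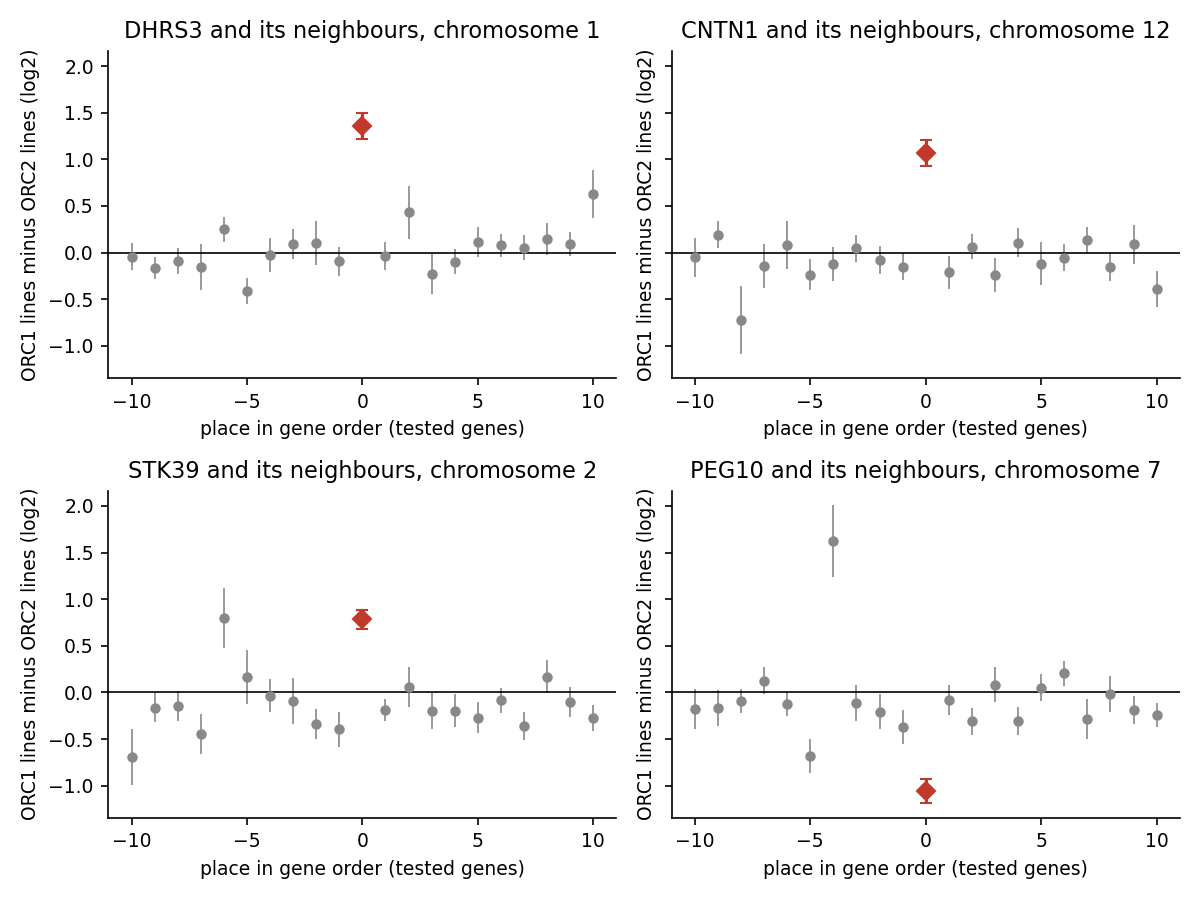
Log2 difference of ORC1 minus ORC2 lines (vertical axes) for each of the 4 genes (red diamonds) and the 10 tested genes on either side, by place in RefSeq gene order (horizontal axes, no distance implied). Bars are limma standard errors. The neighbours lie between -0.72 (near CNTN1) and 1.62 (SAMD9, near PEG10), with medians between -0.18 and 0.01.

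The pathways and families of the 4 genes were followed with 7 lists, which left out the 4 genes themselves. They held 198 genes, of which 122 were named on the array and 95 were tested. Between ORC1 and ORC2 lines limma called 0 of the 95, and 10 (10.5%) had an unadjusted p under 0.05, against 6.96% of all genes. The median size of the difference was 0.120 over the 95 genes and 0.122 over all genes.

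The retinoid list, genes that make, store, bind or sense vitamin A compounds, had 13 tested members with a median of -0.04 between ORC1 and ORC2 lines. RDH10, which makes the retinal that DHRS3 reduces, and the retinal reductase gene RDH11, both named here for their role and outside the naming rule, had log2 signals between 7.24 and 8.37 on all 10 arrays. Between ORC1 and ORC2 lines RDH10 stood at -0.18 (SE 0.17) and RDH11 at -0.35 (SE 0.15), with limma adjusted p of 0.898 and 0.684. RDH11 was the 1 of 13 with an unadjusted p under 0.05, against 6.96% of all genes. In the mean of the 4 mutant lines 1 of the 13 rose and 0 fell, and in the ORC2 lines against WT 1 rose and 1 fell. The gene that rose was CRABP2, which carries retinoic acid to its receptor. Its signal was 9.01 and 9.08 in ORC1B14, 8.38 and 8.09 in ORC1BP32, 8.56 and 9.08 in ORC2B2, 9.15 and 9.13 in ORC2BP8, and 7.72 and 8.11 in WT. ORC1BP32 overlapped WT, and the other 3 mutant lines lay above it. CRABP2 rose by 0.89 in the mean of the 4 lines (SE 0.17, limma adjusted p = 0.0418), and by 1.06 in the ORC2 lines (SE 0.19, limma adjusted p = 0.0325), where 1.07% of all genes were called. In the ORC1 lines it stood at 0.72 (SE 0.19, limma adjusted p = 0.115), where 0.269% of all genes were called. The call in the 4 lines was lost without 8 of the 10 arrays (highest adjusted p 0.357, at 0.70, without WT replicate 1), after centring (0.0665), with no filter (0.0529) and with unnamed probe sets tested too (0.109). The call in the ORC2 lines was lost without ORC2B2 replicate 2, ORC2BP8 replicate 2 or either WT array (0.0748, 0.0856, 0.276 and 0.123), after centring (0.0519) and with unnamed probe sets tested too (0.104).

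LRAT, which stores retinol as esters, fell in the ORC2 lines and was named after its values were seen. Its signal was 4.84 and 4.95 in ORC1B14, 4.52 and 4.87 in ORC1BP32, 4.70 and 4.44 in ORC2B2, 4.43 and 4.25 in ORC2BP8, and 6.22 and 5.24 in WT. The WT arrays lay above the 8 mutant arrays but were far apart. LRAT fell by 1.28 in the ORC2 lines (SE 0.25, limma adjusted p = 0.0426), and stood at -0.94 in the ORC1 lines (SE 0.25, limma adjusted p = 0.119). In the mean of the 4 lines it stood at -1.11 (SE 0.23, limma adjusted p = 0.0505), just outside the threshold. It stayed outside under 13 of 18 alternatives, with limma adjusted p of 0.129 when unnamed probe sets were tested too. It passed there after quantile normalization (0.0418), with a stricter filter (0.0445), with the mean over probe sets (0.0480) and without ORC2BP8 replicate 1 (0.0465). The call in the ORC2 lines was lost without any array except ORC2BP8 replicate 1 (at -1.77 to -0.79, adjusted p up to 0.291, without WT replicate 1), with no filter (0.0544) and with unnamed probe sets tested too (0.132). Neither LRAT (0.34, SE 0.20) nor CRABP2 (-0.34, SE 0.16) passed between ORC1 and ORC2 lines, with limma adjusted p of 0.818 and 0.722.

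In the other lists limma called 0 members between ORC1 and ORC2 lines, in the 4 mutant lines, in the ORC1 lines or in the ORC2 lines against WT. It called 0.0463%, 1.02%, 0.269% and 1.07% of all genes in these comparisons, so 0 calls in lists of 6 to 19 genes is near the background. Among 16 tested DHRS and hydroxysteroid dehydrogenase genes the largest differences between ORC1 and ORC2 lines were DHRS13 (-0.54) and DHRS1 (0.46), with a list median of 0.01. Among 12 contactin relatives and partners they were DNER, a Notch ligand of neurons, at 1.30 (SE 0.19, limma adjusted p = 0.0503), and CNTNAP1, a contactin partner at axon junctions, at -0.43. The DNER value lay just outside the threshold. It stayed outside under 12 of 18 alternatives, with limma adjusted p up to 0.246 where all arrays were kept. It passed under the rest. The limma adjusted p was 0.0407 after centring, 0.0471 with a stricter filter, 0.0494 with the mean over probe sets, and 0.0365 and 0.0363 without WT replicate 1 and 2. Among 19 genes of the WNK and SPAK kinase pathway they were the stress kinase MAP3K5 (0.39) and WNK1, a kinase that acts on STK39 (-0.31), with a median of 0.03.

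For relatives of PEG10 in the same contrast, 1 of 11 gag-like genes, 0 of 6 neighbourhood genes and 2 of 19 other imprinted genes had an unadjusted p under 0.05, against 6.96% of all genes. Among the 11 other gag-like genes derived from retrotransposons the largest differences were PNMA3 (0.33) and ARC, a gag-like gene of neuronal synapses (0.33), with a median of 0.09. Of 15 genes of the imprinted neighbourhood of PEG10 on chromosome 7, 6 were tested, and CASD1 (-0.38) and PON2 (-0.31) differed most. Among 19 other imprinted genes they were CPA4 (0.41) and PLAGL1 (-0.39), with a median of -0.01. Apart from DNER, the genes named by size in these lists had limma adjusted p between 0.366 and 0.846.

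**Figure D4:**
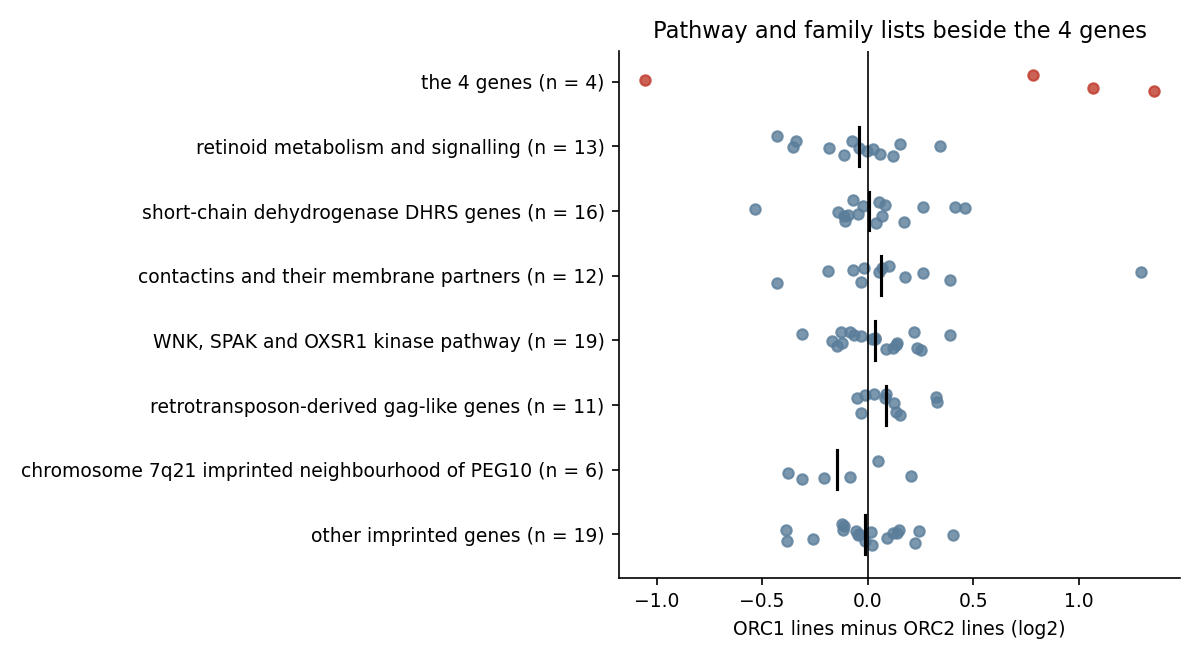
Log2 difference of ORC1 minus ORC2 lines (horizontal axis) for the 4 genes (red) and for the tested members of 7 pathway and family lists (blue), with the list medians as black bars and n as the number of genes. List medians lie between -0.15 and 0.09, and DNER at 1.30 is the list gene with the largest difference.

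Markers of other cell types were read beside CNTN1, which is best known from neurons. Of 15 neural and glial markers 8 were named, and their mean log2 signal was 4.67 to 4.94 on the ORC1 arrays, 4.65 to 4.79 on the ORC2 arrays and 4.80 to 4.91 on the WT arrays. MAP2, SYP, GAP43, MBP and SOX10 lay at or above the array median on all 10 arrays, and STMN2 and S100B below it. Of the 6 that were tested, limma called 0 between ORC1 and ORC2 lines, in the mean of the 4 mutant lines and between ORC2 lines. At an unadjusted p under 0.05 the counts were 0, 2 and 1 of 6, against 6.96%, 17.3% and 5.46% of all genes. MAP2, a microtubule protein of neurons named here after its values were seen, had its highest and lowest mean in the same lines as CNTN1. Between these ends the order differed: in ORC2B2 the MAP2 mean lay above both ORC1 lines, and the CNTN1 mean below both. The log2 signal of MAP2 was 6.46 and 5.88 in ORC1B14, 6.33 and 6.04 in ORC1BP32, 6.52 and 6.29 in ORC2B2, 5.73 and 5.49 in ORC2BP8, and 6.71 and 6.98 in WT. MAP2 was highest in WT and lowest in ORC2BP8, at -0.76 in the mean of the 4 mutant lines (SE 0.19, limma adjusted p = 0.0760) and 0.80 for ORC2B2 minus ORC2BP8 (SE 0.24, limma adjusted p = 0.426). The other tested markers did not share this course. For ORC2B2 minus ORC2BP8, GAP43 stood at -0.24, and SYP, GFAP, MBP and SOX10 stood between 0.001 and 0.09. In the mean of the 4 mutant lines, 2 of the 6 stood above 0, up to 0.35, with a median of -0.06. The part of MAP2 in the CNTN1 results was not tested. Of the fibroblast, blood, and hepatocyte and kidney lists 1, 2 and 4 members were tested and 0 were called between ORC1 and ORC2 lines (0.0463% of all genes), a number too small to describe these lists. DCN, LUM, CD14, LYZ, ALB, AFP, FGB and LRP2 lay below the median on all 10 arrays. THY1 of the fibroblast list and APOA1, TTR, PAX2 and PAX8 of the hepatocyte and kidney list lay at or above it on all 10. The 4 named of 12 blood markers had a mean of 5.08 to 5.42 on the ORC1 arrays, 4.88 to 5.20 on the ORC2 arrays and 4.83 to 4.92 on the WT arrays. CD68 and PF4 were the blood markers above the array median, and the part of this difference in the results above was not tested.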

How the data were processed

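Total RNA of 10 samples was hybridised to Affymetrix arrays, after Trizol extraction and biotin labelling per the labels' protocols. The authors deposited 1 log2 value per probe set and array (53617 probe sets, 10 arrays). Affymetrix Expression Console is the tool named per the submitters' processing notes. Not given in the sources used here are its version, how arrays were normalized, which annotation was used and which build. The values were used without further scaling.

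Probe sets were named through the platform annotation (16098 with 1 symbol, 37519 unnamed here, 0 with several), and all 16098 matched RefSeq by gene ID. The filter asked for a signal no lower than the array median on 2 or more arrays, and the brightest kept probe set stood for a gene. Differences were fitted in R 4.3.3 with limma 3.58.1 (5 line means, all 10 arrays, eBayes with an intensity trend, with 5 degrees of freedom from residuals and 5.83 from the prior). Tests were two-sided, and p-values were adjusted by the Benjamini-Hochberg method across 10797 genes, with a threshold of 0.05. The fit was tested on simulated data. The members, lists and tests were chosen with earlier results of these data known. For the members, tests were kept to contrasts orthogonal to ORC1 minus ORC2 lines. Named genes besides the members were, for each member, the 3 with the highest Pearson r and the nearest tested gene on each side, and in each list the genes called in ORC1 minus ORC2 lines or in the 4 mutant lines, or otherwise the 2 with the largest difference between ORC1 and ORC2 lines. Alternatives covered normalization, filter, probe set rule, features tested, eBayes trend, the block and each array left out.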

Additional observations from a re-analysis of the deposited data

Results flagged for a closer look

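CNTN1 differed between the lines of the same mutated gene. It was 5.18 ± 0.0522 in ORC2B2 and 3.88 ± 0.270 in ORC2BP8 (SD, n = 2 each), a difference of 1.31 (SE 0.20, limma adjusted p = 0.0292). ORC2BP8 replicate 2 lay below the median of its array, so the size is uncertain, and the call was lost without either array of either ORC2 line (1.12 to 1.497) or without either ORC1BP32 array.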

How the results depend on the processing

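Each of 24 results for the 4 genes was recomputed under 18 alternatives. Of these 432 values, 405 kept their side of the threshold or moved by less than the spread between arrays, and 0 changed the direction of a call. Most of the 24 results were no call or were not tested, and the calls held less often. In the 4 mutant lines the call held under 7 of 18 alternatives for CNTN1 and 15 of 18 for STK39. Between ORC2 lines that of CNTN1 held under 11 of 18. The ORC1 minus ORC2 differences spanned 1.33 to 1.39 for DHRS3, 0.97 to 1.16 for CNTN1, 0.71 to 0.86 for STK39 and -1.11 to -1.001 for PEG10 when each array was left out. In the mean of the 4 mutant lines, CNTN1 stood at -0.95 to -0.72 and STK39 at -0.83 to -0.76 without each array. The CNTN1 call was lost there with no filter on dim probe sets (-0.84, adjusted p = 0.0510) and with all probe sets tested (-0.84, 0.0951), as were those of STK39 (-0.79, 0.0530) and of CNTN1 between ORC2 lines (1.31, 0.190) with all probe sets tested. Testing more features raises the adjustment. CNTN1 between ORC2 lines spanned 1.12 to 1.497 without each array, and DHRS3 spanned 0.82 to 1.30 for ORC1 lines and -0.54 to -0.059 for ORC2 lines against WT without each array.

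The main fit did not pair arrays by replicate number, because deviations of same-numbered arrays did not correlate over 0.1 in every pair of lines. They did in 9 of 10 pairs (0.0812 to 0.568 over all 10), and array medians also differed by replicate number. The unpaired fit may therefore leave out a difference shared by arrays of the same number. With the replicate block PEG10 gained calls in the mean of the 4 mutant lines (-0.53, adjusted p = 0.0406) and between ORC2 lines (-0.89, 0.0399), and no other call of the 4 genes changed. DNER between ORC1 and ORC2 lines (0.00636) and LRAT in the 4 mutant lines (0.0183) also passed with it. The block raised the genes called to 709 from 110 in the 4 mutant lines, 11 from 2 between ORC1 lines, 94 from 24 between ORC2 lines and 58 from 5 between ORC1 and ORC2 lines. For the 4 mutant lines 204 genes were called after quantile normalization, 63 after centring and 4 with all probe sets. With all probe sets 0 were called between ORC2 lines (1238 at an unadjusted p under 0.05) and 2 between ORC1 and ORC2 lines. Without each array the counts spanned 1 to 267, 0 to 5, 0 to 23 and 0 to 10 in the same order of comparisons, with 362 to 869 genes at an unadjusted p under 0.05 where 0 were called. Higher and lower calls split 45 to 65 in the 4 mutant lines (17 to 46 after centring), 1 to 1 between ORC1 lines and 3 to 2 between ORC1 and ORC2 lines (1 to 2 and 5 to 2 after quantile normalization). Against WT they split 10 to 19 in ORC1 lines and 32 to 83 in ORC2 lines (26 to 29 and 72 to 102 after quantile normalization). Of 697 values for other named genes, 655 kept their side of the threshold, 28 lost and 14 gained a call, and 0 were reversed. Most of these values belong to results that were no call in the main fit, and all losses were of CRABP2 and LRAT calls. The CRABP2 call held under 7 of 18 alternatives in the 4 mutant lines and 12 of 18 in the ORC2 lines. The LRAT call in the ORC2 lines held under 7 of 18. The causes of these shifts were not tested.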
